A study of Mus musculus with 49 samples.

Results

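RNA was compared between mouse embryonic stem (ES) cells that had lost Trim24 and ES cells that had kept it, both after p53 had been activated for 4 h. The 8 libraries were those of the experiment that also held the ligase-null mutant (the RING experiment), and they were taken by their labels as 4 Trim24-degraded libraries against 4 Trim24-expressing libraries, 8 of the 49 samples of the series. Every gene of the table was considered: 20489 genes were listed and 16313 had enough reads to be tested. All 8 libraries came from 129S6/SvEvTac ES cells with degron-tagged Trim24, in which both endogenous alleles carry, at the C-terminus, a degron built from FKBP12 together with a V5 tag. Per the study's methods, single clones with the tag on both alleles were picked and expanded, and how many of them these libraries came from is not given in the sources used here. Every library was from cells given 1 µM doxorubicin for 4 h, a DNA-damaging drug that activates p53, and the degraded libraries were from cells also given 500 nM dTAG13, which brings the tagged protein to a ubiquitin ligase. No library of this experiment had dTAG13 with an untagged Trim24, so loss of the protein and the presence of the degrader cannot be told apart. The libraries were numbered replicates 4 to 7 in both groups. The study's methods call its RNA-seq libraries biological replicates and do not say whether each came from a separate culture, so the p-values measure the spread between these samples.

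Trim24 is a member of the TIF1 family of tripartite motif proteins. Its PHD finger and bromodomain read histone H3 that is unmethylated at lysine 4 and acetylated further along the tail, and its RING domain is known to act as a ubiquitin ligase on p53. p53 is a transcription factor that binds a repeated decamer and switches on genes of cell cycle arrest, cell death and DNA repair, among them Cdkn1a, the cyclin-dependent kinase inhibitor p21, and Mdm2, the ligase that turns p53 over. In ES cells p53 activation is also known to lower the genes of the naive pluripotent state. The comparison addresses which transcripts differ after p53 activation when the Trim24 protein has been removed.

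The degraded libraries held 24492233 to 33893100 reads in genes and the expressing libraries 16669410 to 21072810, so the groups did not overlap in depth. The authors' scaling factors did not overlap between the groups either. Trim24-expressing replicate 7 stood apart from the other 3 libraries of its group, with a chi-square per degree of freedom of 26.7 to 27.6 against each of them, where those 3 gave 3.0 to 4.59 among themselves and the degraded libraries 3.81 to 7.05. This library held 16738.7 CPM of Lars2, a mitochondrial leucyl-tRNA synthetase gene, where the other expressing libraries held 42.4 to 207.0. The chi-square was summed over genes with Lars2 included, and it was not computed without that gene. On the log2 scale replicate 7 correlated with the other 3 at 0.9947 to 0.9951, where those 3 gave 0.9964 to 0.9967 among themselves. Values without this library are given below where a result rests on it. The 6 ES cell markers Pou5f1, Sox2, Nanog, Zfp42, Esrrb and Sall4 were each at 84.7 CPM or more in every library and summed to 1687.5 to 1931.2 CPM in expressing cells and 1691.5 to 1766.3 CPM in degraded cells. Of the markers of other cells, 12 fibroblast or feeder genes summed to 749.6 to 777.9 CPM in expressing and 732.3 to 833.4 CPM in degraded libraries, with Fn1 the highest and 5 of them under 1 CPM in every library. The 6 primitive endoderm markers summed to 10.2 to 12.9 and 14.7 to 16.9 CPM with 3 of them under 1 CPM throughout, the 5 trophoblast markers to 1.24 to 2.14 and 0.993 to 2.01 CPM with 4 under 1 CPM, and the 6 neuroectoderm markers to 149.9 to 174.9 and 162.9 to 180.5 CPM with 4 under 1 CPM. The sum of these 6 primitive endoderm markers did not overlap between groups, and Pdgfra, a growth factor receptor, was its highest gene, but a wider list of 15 primitive endoderm genes summed to 1426.7 to 1498.3 CPM in expressing and 1448.9 to 1529.1 CPM in degraded libraries, which overlap. In these bulk samples, fewer cells that transcribe a gene and less RNA per cell cannot be told apart.

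The RNA of Trim24 itself was no lower in the degraded libraries. The degrader acts on the protein, which was not measured in these libraries. Trim24 stood at 121.1, 128.5, 122.6 and 121.4 CPM in expressing replicates 4 to 7 and at 130.4, 134.9, 124.7 and 133.5 CPM in degraded replicates 4 to 7. The groups overlapped, and the log2 fold change of 0.08 did not pass (adjusted p = 0.22 by limma, the linear model fitted across all genes tested). Degradation of the protein can therefore not be checked from the RNA. Trp53 stood at 221.0, 202.1, 221.0 and 204.6 CPM against 181.0, 228.6, 177.6 and 172.3 CPM, with degraded replicate 5 above every expressing library, and its log2 fold change of −0.17 did not pass (adjusted p = 0.12).

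Removal of Trim24 raised 165 genes and lowered 22, where a gene counted as changed if its adjusted p was below 0.01 and its log2 fold change was 0.75 or more in either direction. These were 1.01% and 0.135% of the genes tested. In 161 of the 165 genes that rose, every degraded library lay above every expressing library, and in 20 of the 22 that fell every degraded library lay below, where 14.9% and 7.28% of all genes tested were separated in these directions. The genes that rose had a median log2 fold change of 1.096, with 103 at 1 or more and 19 at 2 or more, and all but 1 of those that fell lay between −1.0 and −0.75. The median over all genes tested was 0.019. Read support was low for most of them: in CPM, which are not scaled to gene length, the genes that rose had a median of 1.95 in expressing cells with quartiles of 0.685 and 5.18, and 5.11 in degraded cells, and 58 of them were under 1 CPM in expressing cells. Without expressing replicate 7 the counts were 184 and 20. With the reads of every library thinned to the total of the smallest, which removes the difference in depth, they were 163 and 29.

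**Figure D1:**
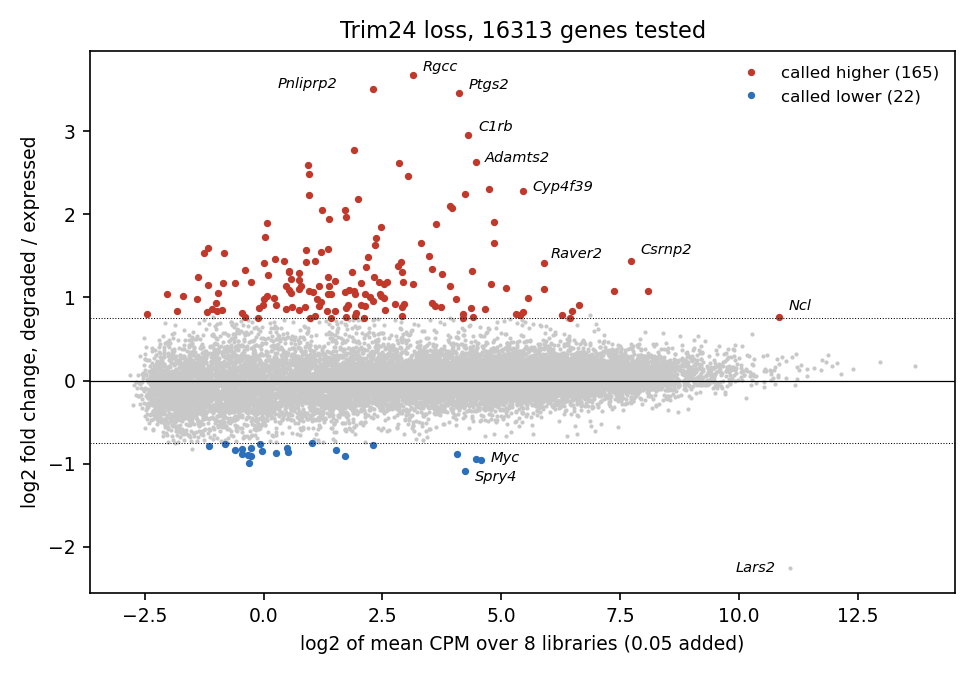
Log2 fold change (Trim24-degraded over Trim24-expressing, RING experiment) of the 16313 genes tested against the log2 of their mean CPM over the 8 libraries (0.05 added), with the 165 genes that rose in red, the 22 that fell in blue, the others in grey and dotted lines at the minimum change of 0.75. The genes that rose reach 3.67 and those that fell −1.09, and the lone grey point at −2.26 is Lars2, which was high in expressing replicate 7 only and did not pass the test.

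Ptgs2, Rgcc and Tnfaip3, genes singled out by the study and so not independent evidence, all rose. Ptgs2 encodes cyclooxygenase-2, the inducible enzyme that makes prostaglandin precursors, and lies on the plus strand of chromosome 1 (chr1:150100031-150108227, GRCm38). It stood at 2.12, 3.36, 2.08 and 2.87 CPM in expressing and at 33.8, 29.6, 32.7 and 30.5 CPM in degraded libraries. The lowest degraded value was far above the highest expressing one, the ratio of the means was 12.2, and the log2 fold change was 3.46 ± 0.11 (SE, adjusted p = 6.6e-22). The fold changes here and below are on the authors' log2 scale with a prior count of 8 reads, which understates the change of genes with few reads. Rgcc, a regulator of cell cycle progression also known as a response gene to complement, had the largest fitted increase of the genes tested. It lies on the minus strand of chromosome 14 (chr14:79288756-79301645) and stood at 0.879, 0.778, 1.77 and 0.702 CPM against 15.3, 16.8, 17.5 and 16.9 CPM. The groups were again wide apart, with a log2 fold change of 3.67 ± 0.16 (adjusted p = 2.1e-14). Tnfaip3 encodes A20, a ubiquitin-editing enzyme that dampens NF-κB signalling, and its change was smaller. It stood at 3.0, 3.31, 2.65 and 2.81 CPM against 5.58, 5.72, 6.5 and 5.31 CPM, without overlap, and the log2 fold change was 0.90 ± 0.12 (adjusted p = 7.4e-07).

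**Figure D2:**
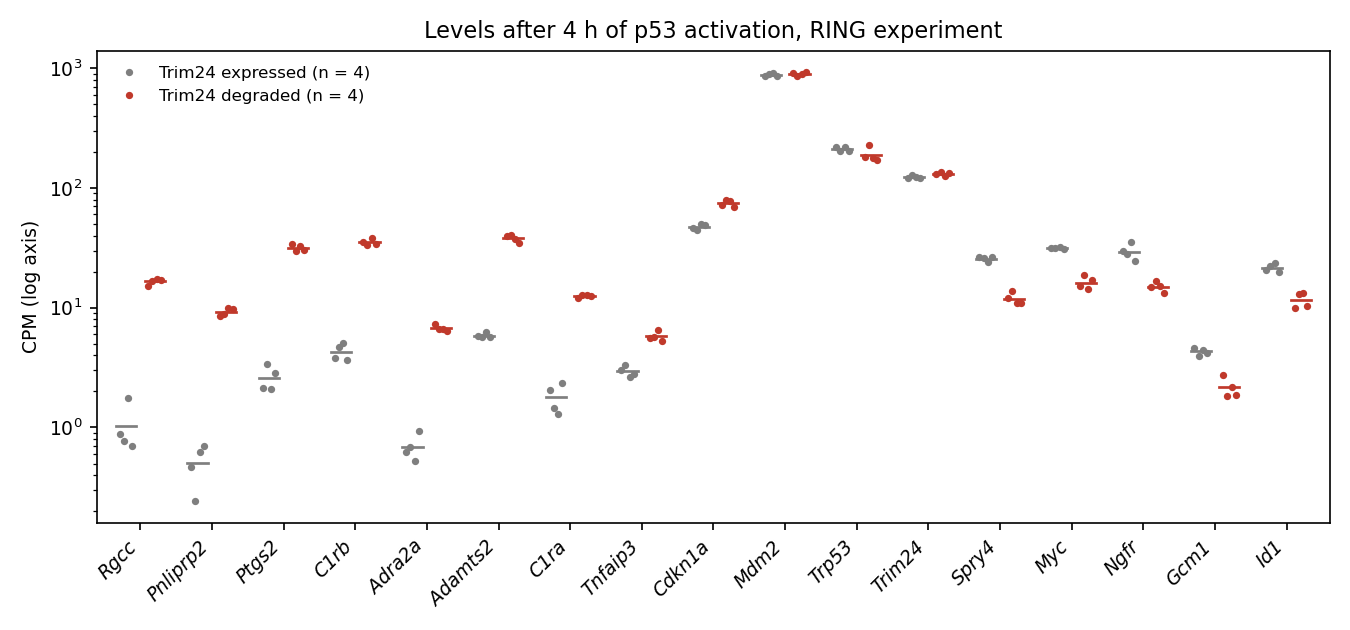
CPM (log axis) in each Trim24-expressing (grey, 4) and Trim24-degraded (red, 4) library of the RING experiment for 17 genes named in the text, with a bar at each group mean. Ptgs2 goes from 2.08 to 3.36 up to 29.6 to 33.8 and Spry4 from 24.1 to 26.3 down to 10.9 to 13.8, while the groups of Trim24, Trp53 and Mdm2 overlap.

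To show the DNA in front of the genes at the centre of the comparison, promoters were read from RefSeq (GRCm38.p6), from 250 bases before to 50 after the start, for Ptgs2 and Rgcc, for Cdkn1a as a known direct p53 target, and for Dntt, S100a3 and Clca2, which rose and held a match to the p53 consensus. The consensus was searched as 20 bases, a repeated element of 10 bases with its core C and G fixed in both repeats and with at most 3 mismatches elsewhere. It reads the same on both strands. Each sequence is 5′ to 3′ on the strand of its gene, and capitals mark the match.
Ptgs2, chr1:150099781-150100080, plus strand: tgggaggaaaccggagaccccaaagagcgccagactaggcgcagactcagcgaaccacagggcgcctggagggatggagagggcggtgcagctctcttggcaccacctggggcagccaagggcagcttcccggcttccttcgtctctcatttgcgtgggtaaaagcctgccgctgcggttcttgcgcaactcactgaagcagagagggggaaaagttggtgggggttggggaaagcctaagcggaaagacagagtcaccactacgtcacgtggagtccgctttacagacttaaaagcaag
Rgcc, chr14:79301586-79301885, minus strand: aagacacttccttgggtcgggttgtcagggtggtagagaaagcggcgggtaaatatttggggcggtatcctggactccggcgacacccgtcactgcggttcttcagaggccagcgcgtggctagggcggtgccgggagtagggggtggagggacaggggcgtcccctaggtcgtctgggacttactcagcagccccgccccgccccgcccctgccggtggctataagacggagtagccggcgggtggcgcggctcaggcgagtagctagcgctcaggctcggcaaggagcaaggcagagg
Cdkn1a, chr17:29090729-29091028, plus strand: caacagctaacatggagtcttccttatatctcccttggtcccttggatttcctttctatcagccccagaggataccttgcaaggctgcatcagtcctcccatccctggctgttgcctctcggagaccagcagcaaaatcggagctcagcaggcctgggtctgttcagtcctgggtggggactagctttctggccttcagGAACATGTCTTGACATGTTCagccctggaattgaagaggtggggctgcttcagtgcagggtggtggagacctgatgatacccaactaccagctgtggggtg
Dntt, chr19:41029025-41029324, plus strand: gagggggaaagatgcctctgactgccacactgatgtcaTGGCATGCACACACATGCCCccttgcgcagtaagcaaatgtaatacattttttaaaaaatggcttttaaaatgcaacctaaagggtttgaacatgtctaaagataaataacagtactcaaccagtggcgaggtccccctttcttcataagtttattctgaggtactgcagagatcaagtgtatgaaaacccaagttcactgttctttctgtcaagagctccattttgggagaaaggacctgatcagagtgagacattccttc
S100a3, chr3:90588313-90588612, plus strand: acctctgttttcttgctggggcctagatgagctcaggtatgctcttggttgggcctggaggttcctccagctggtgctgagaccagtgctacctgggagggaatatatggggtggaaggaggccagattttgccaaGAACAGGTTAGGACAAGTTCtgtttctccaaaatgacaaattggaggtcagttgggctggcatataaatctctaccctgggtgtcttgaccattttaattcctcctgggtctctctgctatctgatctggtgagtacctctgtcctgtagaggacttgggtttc
Clca2, chr3:145099057-145099356, minus strand: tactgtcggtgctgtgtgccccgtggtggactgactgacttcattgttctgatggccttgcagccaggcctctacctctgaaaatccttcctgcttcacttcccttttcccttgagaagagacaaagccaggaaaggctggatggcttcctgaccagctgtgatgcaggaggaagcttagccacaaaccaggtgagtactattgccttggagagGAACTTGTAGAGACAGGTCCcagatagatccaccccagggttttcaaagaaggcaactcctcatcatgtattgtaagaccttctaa

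The Ptgs2 and Rgcc windows held no match to these letters. The match in front of Cdkn1a had 1 mismatch and began 51 bases before the start used. That start lies at the upstream end of the annotated gene (chr17:29090976-29100727), and distances to other starts are not given. The match of S100a3 had 2 mismatches and began 114 bases before the start used, and those of Dntt and Clca2 had 3 mismatches and began 212 and 36 bases before it. Promoter sequence was at hand for 128 of the 165 genes that rose, and 6 of these windows (4.69%) held a match, the others being those of Dusp10, Dhx32 and 1700056E22Rik, where the windows of Dusp10 and the divergent 1700056E22Rik overlap. Of the 14 windows of genes that fell, 1 held a match (7.14%, Sorbs2), and of 12866 windows of all genes tested 240 did (1.87%). The windows of the genes that rose were poor in the dinucleotide CG: the median count was 11.0, as for the genes that fell, against 20 over all genes tested. Fewer than 8 were held by 41.4% of the windows of genes that rose and 42.9% of those of genes that fell, against 18.7% of all. The genes that rose also had a lower median level in expressing cells, 1.95 CPM against 16.2 CPM over all genes tested. The windows were not matched for level. These are counts of letters, and no binding was measured in the libraries described here. The study shows binding of p53 and Trim24 at Ptgs2 by chromatin immunoprecipitation. It also reports that the genes which responded to Trim24 loss had both proteins at promoter sites. A window without a match therefore does not mean that p53 is not bound at the gene.

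Other genes with large increases differed in what they encode. Pnliprp2, a pancreatic lipase-related protein on chromosome 19 (chr19:58759719-58777534), stood at 0.465, 0.243, 0.623 and 0.702 CPM against 8.52, 8.78, 9.93 and 9.8 CPM (log2 fold change 3.5 ± 0.16, adjusted p = 2.9e-19). It was under 1 CPM in every expressing library and over 8 CPM in every degraded one. Adra2a, the α2A-adrenergic receptor, stood at 0.62, 0.681, 0.52 and 0.936 CPM against 7.34, 6.59, 6.64 and 6.33 CPM (2.77 ± 0.15). Adamts2, the protease that trims the amino end of fibrillar procollagens, stood at 5.84, 5.64, 6.23 and 5.67 CPM against 39.6, 40.4, 37.1 and 34.9 CPM (2.63 ± 0.08). The spread within a group was small in both genes beside the distance between the groups. Cyp4f39, a fatty acid ω-hydroxylase of the cytochrome P450 family, stood at 14.6, 14.1, 16.1 and 14.4 CPM against 73.2, 71.8, 75.9 and 72.4 CPM (2.29 ± 0.06, adjusted p = 1.1e-25). Trpm6, a magnesium channel with a kinase domain, went from a mean of 2.28 to 14.1 CPM (2.46). Reg1, a secreted lectin of the pancreas, went from 0.285 to 3.42 CPM (2.59) and Dntt, the template-independent DNA polymerase of lymphocytes, from 0.337 to 3.46 CPM (2.48). Reg1 and Dntt were under 1 CPM in each expressing library and over 2 CPM in each degraded one. The 12 genes with the largest increases, C1ra and C1rb among them, were all within the 115 of 165 that were counted as changed under every processing alternative tried.

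Genes of the classical complement proteases differed in the size of their increase. C1ra and C1rb are copies of the gene for C1r, the first protease of the classical complement pathway, and C1s2 is a copy of the gene for C1s, which C1r cleaves. The 3 genes lie within 1 stretch of chromosome 6 (chr6:124512405-124523443, chr6:124570294-124581171 and chr6:124624625-124636085). C1rb stood at 3.77, 4.72, 5.04 and 3.63 CPM against 35.2, 33.4, 38.4 and 33.9 CPM (log2 fold change 2.95 ± 0.09, adjusted p = 6.8e-24). C1ra stood at 2.07, 1.46, 1.3 and 2.34 CPM against 12.0, 12.8, 12.8 and 12.5 CPM (2.61 ± 0.13). C1s2 stood at 3.26, 3.89, 3.01 and 4.85 CPM against 7.66, 6.75, 7.92 and 8.65 CPM (0.99 ± 0.12). None of the 3 had overlapping groups, and C1s2 moved least of them. C1s1, the other copy of the C1s gene, stood at 9.04, 8.17, 7.22 and 7.78 CPM against 10.5, 10.2, 11.9 and 10.7 CPM, and its log2 fold change of 0.41 ± 0.09 (adjusted p = 0.0012) was under the minimum of 0.75. Because such copies are close in sequence and reads that map to several places were placed once at random, the split of reads between copies is uncertain. Of 13 complement genes tested, C1ra, C1rb and C1s2 were counted as changed, and the median log2 fold change was 0.156. By a looser rule, an adjusted p below 0.05 whatever the size of the change, which 15.3% of all genes passed upward and 7.02% downward, 5 of the 13 rose.

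Among 16 genes of prostanoid metabolism, Ptgs2 was the 1 counted as changed. At the looser rule 2 rose and 3 fell, and the median change of the list was 0.093 on the log2 scale. The list of NF-κB subunits, feedback inhibitors and targets gave 3 that rose and 1 that fell at the looser rule among 16, with a median of −0.015, and Tnfaip3 was the member named by the largest change past both thresholds. Fgfr2, a receptor for fibroblast growth factors, stood at 2.27, 2.14, 2.08 and 3.04 CPM against 5.04, 6.08, 6.02 and 5.91 CPM (1.17 ± 0.13, adjusted p = 1.7e-08), without overlap. Krt7, an epithelial keratin also found in trophoblast, went from a mean of 6.39 to 16.8 CPM (1.34).

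The following genes, chosen after their values were seen, show the range of functions among the other genes that rose. Foxc2 and Foxl1, forkhead transcription factors of mesoderm, are neighbours on chromosome 8 (chr8:121116171-121118895 and chr8:121127940-121130644). Foxc2 stood at 0.672, 0.584, 0.779 and 0.643 CPM against 3.96, 4.45, 4.09 and 3.21 CPM, and Foxl1 at 0.413, 0.438, 0.468 and 0.351 CPM against 3.6, 3.5, 4.05 and 2.27 CPM. Both were under 1 CPM in every expressing library and rose without overlap (2.06 ± 0.16 and 2.24 ± 0.18). A few of the genes that rose were well covered by reads in the Trim24-expressing libraries too. Csrnp2, a nuclear protein of the cysteine- and serine-rich family, stood at 112.0, 118.1, 118.9 and 106.1 CPM against 305.6, 322.2, 307.7 and 302.0 CPM (1.44 ± 0.05). Csrp2, a LIM-domain protein of smooth muscle, went from a mean of 174.8 to 368.4 CPM (1.08), Tubgcp3, a subunit of the γ-tubulin complex that nucleates microtubules, from 106.4 to 224.4 CPM (1.07) and Vegfa, the vascular growth factor, from 64.3 to 114.7 CPM (0.83). Ncoa1, a coactivator of nuclear receptors, went from 37.7 to 80.8 CPM (1.10). Ncl, nucleolin, stood at 1367.0, 1328.2, 1283.4 and 1437.2 CPM against 2300.9, 1779.3, 2717.5 and 2511.6 CPM (0.77 ± 0.14, adjusted p = 0.0089), and it was no longer counted as changed in 7 of the 8 fits that left out 1 library.

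Signalling molecules, chosen likewise after their values were seen, were also among them. Dusp10, a phosphatase that inactivates the stress kinases p38 and JNK, had a mean of 5.06 ± 0.54 CPM (SD, n = 4) against 19.6 ± 0.81 CPM (SD, n = 4), with a log2 fold change of 1.89 ± 0.09. Kitl, the ligand of the Kit receptor, stood at 10.9, 11.2, 12.3 and 12.7 CPM against 28.7, 26.9, 31.9 and 31.7 CPM (1.31 ± 0.08). Dll1, a ligand of Notch receptors, went from a mean of 3.73 to 10.3 CPM (1.38), and Hhip, a decoy receptor for hedgehog ligands, from 2.21 to 6.79 CPM (1.49). The groups of Dusp10 and Kitl did not overlap. Receptors for small molecules and peptides included the free fatty acid receptors Ffar3 (1.13 to 5.45 CPM) and Ffar1 (0.787 to 2.83 CPM), the endothelin receptor Ednrb (0.649 to 2.15 CPM) and the melanocortin receptor Mc5r (3.53 to 8.47 CPM). Muscle genes included Myh7, the slow myosin heavy chain (4.52 to 10.7 CPM), and Myot, a sarcomeric Z-disc protein (4.13 to 10.8 CPM). Immune genes included Cd22, an inhibitory receptor of B cells (1.18 to 6.61 CPM), and Itgb2, the β2 integrin of leukocytes (5.17 to 10.2 CPM).

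Several of the genes that rose were next to each other. The annotation (GENCODE vM21, GRCm38) gave a place to 16063 of the genes tested, and 164 of these rose. With the genes tested ordered by start site, 31 of the 164 lay in 15 runs in which neighbouring tested genes all rose. The run with the most genes held 3, Ffar3, Ffar1 and Cd22, whose starts lie within 24164 bases on chromosome 7. The Foxc2 and Foxl1 starts are 11769 bases apart, the Fank1 and Dhx32 starts 5865 bases, and those of the ion channels Trpv1 and Trpv3, which sense heat, 33096 bases. Other neighbours lay much further apart, with starts 160458 bases apart for Cldn11 and Slc7a14 and 449000 bases, the most of all, for Tmem45b and Barx2. No test of clustering was made.

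The genes that fell were fewer and changed less. Spry4, a feedback inhibitor of receptor tyrosine kinase and ERK signalling on chromosome 18, fell most. It stood at 26.3, 26.1, 24.1 and 26.3 CPM in expressing and 12.0, 13.8, 10.9 and 10.9 CPM in degraded libraries, without overlap (log2 fold change −1.09 ± 0.08, adjusted p = 3.1e-13). Myc, the growth-promoting transcription factor on chromosome 15 (chr15:61985391-61990374), stood at 31.5, 31.6, 32.1 and 31.1 CPM against 15.1, 18.6, 14.2 and 16.9 CPM (−0.95 ± 0.07, adjusted p = 2.3e-12). Ngfr, the low-affinity neurotrophin receptor, stood at 29.5, 28.3, 35.2 and 24.7 CPM against 14.9, 16.7, 15.1 and 13.3 CPM (−0.95 ± 0.09). In each of these 3 genes the lowest expressing library was clear of the highest degraded one. Id1, a target of BMP signalling that blocks basic helix-loop-helix factors, stood at 20.6, 22.5, 23.7 and 19.8 CPM against 9.98, 12.9, 13.2 and 10.4 CPM (−0.88 ± 0.09, adjusted p = 1.4e-09). Gcm1, a transcription factor of the placenta, stood at 4.65, 3.94, 4.47 and 4.21 CPM against 2.74, 1.83, 2.19 and 1.88 CPM (−0.90 ± 0.14, adjusted p = 6.5e-06). These 5 genes and Tgtp1, an interferon-induced GTPase (1.59 to 0.705 CPM, −0.87), were the 6 of 22 that fell under every alternative, where 9 of the 22 fell whichever single library was left out. The median level of the 22 genes was 1.45 CPM in expressing and 0.636 CPM in degraded libraries, and 14 of them were under 2 CPM in expressing cells. The other 3 of the 8 with the largest decreases were such genes: Tns4, a tensin of focal adhesions, went from 1.13 to 0.38 CPM (−1.0), Elfn2, an inhibitor of protein phosphatase 1, from 1.14 to 0.431 CPM (−0.91), and St8sia4, a polysialyltransferase, from 1.09 to 0.399 CPM (−0.89). Without expressing replicate 7, 7 of the 22 were no longer counted as changed, among them Fam92b, Muc4, Sdc3 and Sorbs2. Its Muc4 value was 3.1 CPM, where the other 3 expressing libraries stood at 1.29 to 1.66 and the degraded ones at 0.636 to 1.02.

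Known p53 targets did not move as a group. Of 46 tested members of 4 lists (feedback, cell cycle arrest, cell death, and DNA repair and metabolism), none was counted as changed by limma or by limma-voom on the recovered reads. At an unadjusted p under 0.05, 12 were higher and 9 lower, and at the looser rule 9 rose and 6 fell, and the median of the 46 was 0.035. This balance turned with the scaling, to 7 and 14 after quantile normalization and 8 and 11 after median centring, so no direction can be given for them. Mdm2 stood at 861.9, 891.9, 909.9 and 866.9 CPM against 915.6, 852.5, 889.0 and 924.7 CPM, with overlapping groups (log2 fold change 0.02 ± 0.04, adjusted p = 0.78), and the sign of this small value was negative under quantile normalization and median centring. Cdkn1a stood at 46.5, 44.5, 50.3 and 48.6 CPM against 72.1, 79.5, 78.3 and 69.9 CPM, so every degraded library was above every expressing one. Its log2 fold change of 0.65 ± 0.06 had an adjusted p of 4.4e-11 but was under the minimum of 0.75. Bax, an effector of mitochondrial cell death, rose at the looser rule from 148.0 to 178.7 CPM (0.27, adjusted p = 0.00014), while Sesn2, a stress-induced inhibitor of mTORC1, fell from 217.2 to 180.2 CPM (−0.27) and Sfn, the 14-3-3σ protein of the G2 checkpoint, fell from 37.9 to 27.3 CPM (−0.47). Trp73, the p53 relative p73, fell from 46.0 to 36.5 CPM (−0.34, adjusted p = 0.00023).

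Beside the 187 large changes there were many small ones. At the looser rule 2503 genes rose (15.3%) and 1145 fell (7.02%), and this balance depended on the scaling: 2003 and 2028 after quantile normalization (12.3% and 12.4%), and 2007 and 1987 after median centring (12.3% and 12.2%). The counts below are at the looser rule, with the authors' scaling and then after quantile normalization where these differ in balance.

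Genes of the naive pluripotent state fell. Of 17 tested, 13 fell and 1 rose (13 and none after quantile normalization), and the median of the 17 was −0.310. Nanog, a core factor of this state, stood at 160.4, 168.4, 163.4 and 158.2 CPM against 116.6, 114.6, 108.4 and 112.8 CPM, without overlap (−0.52 ± 0.05, adjusted p = 1e-10). Nr5a2, a nuclear receptor that supports it, fell from a mean of 62.1 to 39.6 CPM (−0.64). Genes of FGF and ERK feedback gave 7 that fell and 2 that rose of 15 (median −0.212), immediate early genes 7 that fell of 21 (median −0.219), with Egr1 at 12.6 to 8.70 CPM (−0.52) and Nr4a1 at 49.9 to 38.1 CPM (−0.39), and BMP, Nodal and ID genes 6 that fell and 1 that rose of 12 (median −0.261, and −0.114 over the genes tested with no filter, −0.407 with a stricter filter). In the list of Myc and its partners Max and Mxd, 4 of 11 fell, with a median of −0.106. Of 7 genes of DNA methylation and demethylation, the dioxygenase genes Tet2 (141.6 to 96.7 CPM, −0.55) and Tet1 (406.3 to 317.5 CPM, −0.36) fell and 1 rose. After quantile normalization 3 of the 7 fell and none rose.

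Genes of cholesterol synthesis rose: 15 of 18, with a median log2 fold change of 0.395, and 15 with 1 that fell after quantile normalization (median 0.326). In cells without doxorubicin they also rose on Trim24 loss, as given below. Msmo1, a sterol C4 methyl oxidase, went from a mean of 119.6 to 166.7 CPM (0.48, adjusted p = 1.3e-09). Ribosomal protein genes gave 59 of 82 that rose, with a median of 0.267, and 48 that rose with 2 that fell after quantile normalization (median 0.169). Their summed level was 40349.2 to 41503.9 CPM in expressing replicates 4 to 6, 36235.6 CPM in expressing replicate 7 and 45628.1 to 50731.8 CPM in degraded libraries. Rps26 rose from 527.3 to 729.7 CPM (0.47). The groups also differed in depth and scaling, as given above, and the part of these in the shift of the ribosomal protein genes was not tested. Genes of ATF4 and the unfolded protein response gave 11 that rose and 1 that fell of 16 (median 0.175), or 8 and 1 after quantile normalization (median 0.129). Beside these, 11 housekeeping genes gave 5 that rose and 1 that fell (median 0.144), or 3 and 2 after quantile normalization (median 0.072). In the ATF4 list the transcription factor gene Atf5 went from 18.2 to 25.4 CPM (0.47) and the stress regulator Nupr1 from 6.79 to 10.5 CPM (0.61). Heat shock protein genes gave 5 that rose and 3 that fell of 13, but 1 and 6 after quantile normalization, so no direction can be given for them.

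**Figure D3:**
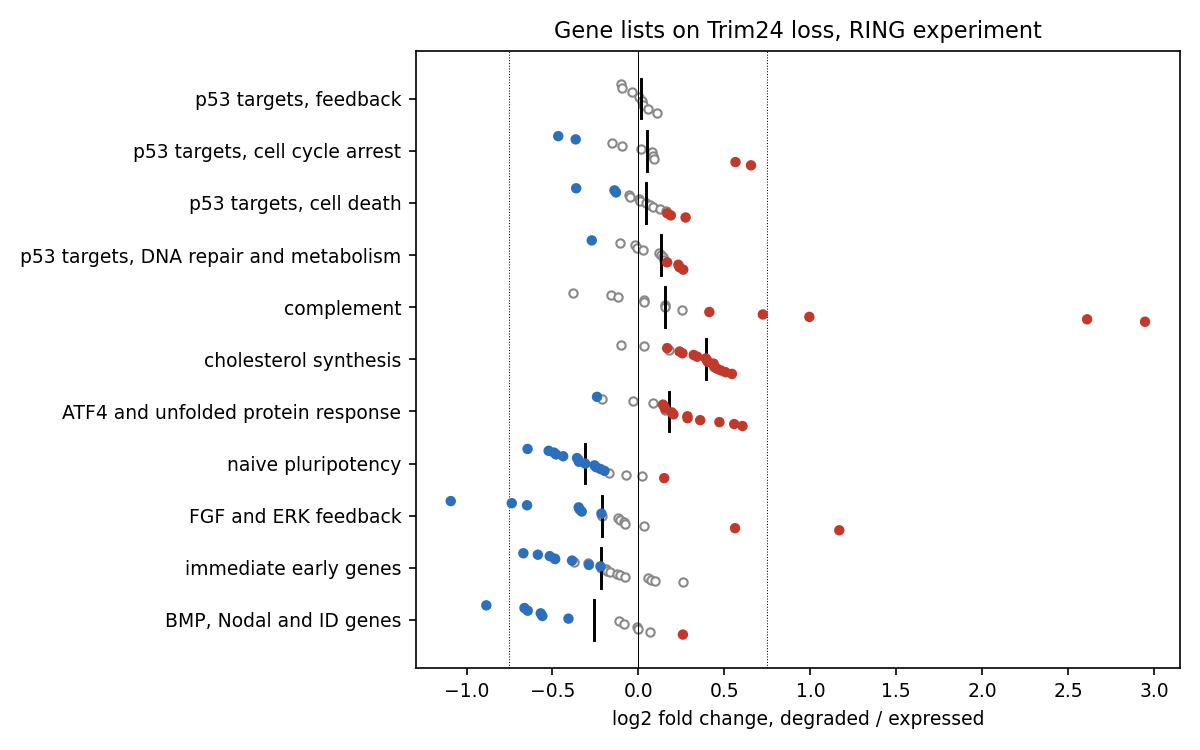
Log2 fold change (Trim24-degraded over Trim24-expressing, RING experiment) of each tested member of 11 gene lists, with red and blue points for genes that rose and fell at an adjusted p below 0.05, open points for the others, a black bar at each median and dotted lines at 0.75 in both directions. The median is −0.310 for naive pluripotency and 0.395 for cholesterol synthesis, and it lies from 0.013 to 0.130 in the 4 lists of p53 targets.

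The same loss of Trim24 at 4 h of p53 activation had been measured in a separate time course of the same cell line, with 3 libraries in each group and none in common with the RING experiment. There 162 genes rose and 24 fell (1.00% and 0.149% of the genes tested). Of the 165 genes that rose in the RING experiment, 164 were tested in the time course, all 164 had a positive log2 fold change there, with a median of 0.899, and 102 were counted as risen, 61.8% of the 165 and 63.0% of the 162. Of the 22 genes that fell, 5 also fell in the time course, 22.7% of the 22 and 20.8% of the 24, 15 had a negative sign and 7 a positive one, and the median was −0.212. The 5 were Spry4, Myc, Ngfr, Id1 and Gcm1. Myc had a log2 fold change of −1.0 in the time course and −0.95 in the RING experiment, Spry4 −1.02 and −1.09, and Ptgs2 3.20 and 3.46. Taken from the other side, of the 24 genes that fell in the time course all had a negative value in the RING experiment, with a median of −0.571, and 13 fell there at the looser rule.

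The difference between the experiments was tested in 1 model of all 14 libraries. The effect of Trim24 loss was larger in the RING experiment for 10 genes (0.0582% of the 17175 tested) and smaller or opposite for 3 (0.0175%). Rgcc rose by 3.67 in the RING experiment and 2.38 in the time course, a difference of 1.29 ± 0.22 (adjusted p = 0.00087). Its degraded libraries had like means in both experiments, 16.6 and 16.5 CPM, and its expressing libraries did not, with 1.03 CPM in the RING experiment and 2.90 CPM in the time course. These levels are set across separate tables and may hold a difference between the experiments. For the test, the reads of both were scaled anew together. The same was seen in C1rb (degraded 35.2 and 36.3 CPM, expressing 4.29 and 10 CPM, difference of log2 fold changes 1.13 ± 0.13), in C1ra (degraded 12.5 and 14.2, expressing 1.79 and 4.63 CPM, 1.08) and in Cyp4f39 (degraded 73.4 and 75.6, expressing 14.8 and 30.1 CPM, 0.97). Cdkn1a also belonged here, with degraded means of 74.9 and 87.6 CPM and expressing means of 47.5 and 75.9 CPM (difference 0.45 ± 0.08, adjusted p = 0.0015, under the minimum of 0.75). Cubn, the receptor cubilin, differed in both groups: its means were 11.8 and 45.2 CPM in the RING experiment and 83.8 and 127.5 CPM in the time course (difference 1.31 ± 0.10, adjusted p = 7.1e-11). Krt5, a basal keratin, stood at 3.88 and 10.9 CPM in expressing and degraded cells of the RING experiment and at 7.89 and 9.81 CPM in the time course (1.12). The 3 genes with the opposite difference were Vmn2r53, a vomeronasal receptor gene (−1.57), Nr3c2, the mineralocorticoid receptor gene (−1.36), and Muc16, a membrane mucin gene (−1.30). Nr3c2 stood at 2.07, 1.95, 1.51 and 1.93 CPM against 1.44, 0.993, 1.42 and 0.984 CPM in the RING experiment, and at a mean of 1.11 CPM in expressing and 2.30 CPM in degraded cells in the time course. At the looser rule the difference was positive for 757 genes and negative for 187 (4.41% and 1.09%). Among ribosomal protein genes it was positive for 34 of 82, and in the time course alone, where 5.25% of all genes rose and 6.20% fell at this rule, 4 of them rose and 2 fell, with a median of 0.009. Naive pluripotency genes fell in both, with 11 of 17 lower in the time course. Cholesterol synthesis genes rose in both, with 14 of 18 higher in the time course (median 0.259). Genes of ATF4 and the unfolded protein response gave 3 that rose and 1 that fell of 16 in the time course, with a median of 0.034.

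**Figure D4:**
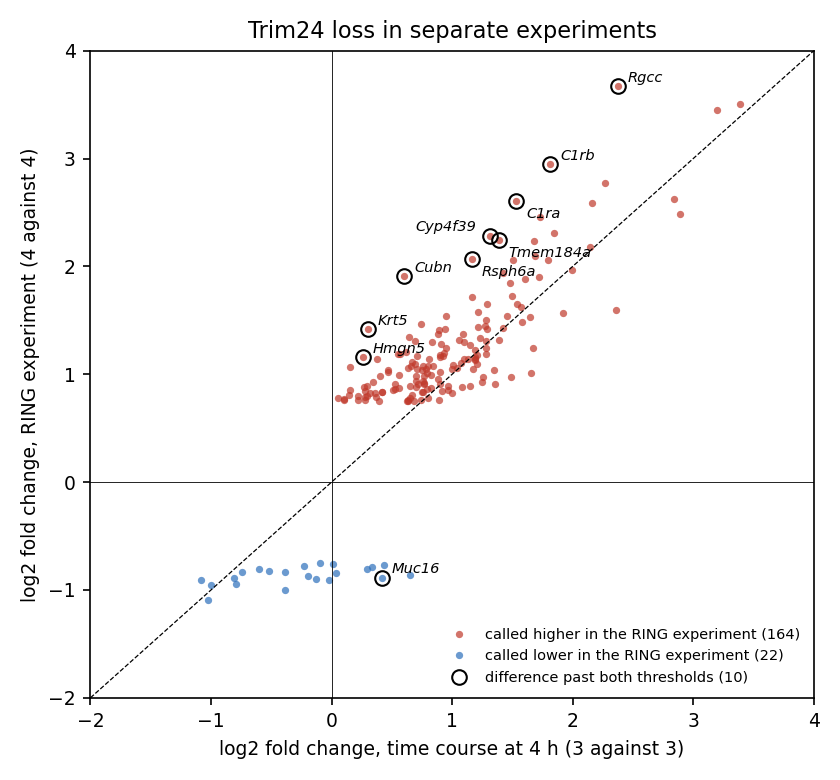
Log2 fold change on Trim24 loss in the RING experiment (vertical, 4 against 4 libraries) against the time course at 4 h (horizontal, 3 against 3), for the 164 genes that rose (red) and the 22 that fell (blue) in the RING experiment and were tested in both. Rings mark genes whose difference between experiments passed both thresholds, and the dashed line is equality; Rgcc, C1rb and Cubn lie above it, and the genes that fell scatter to both sides of 0 in the time course.

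**Figure D5:**
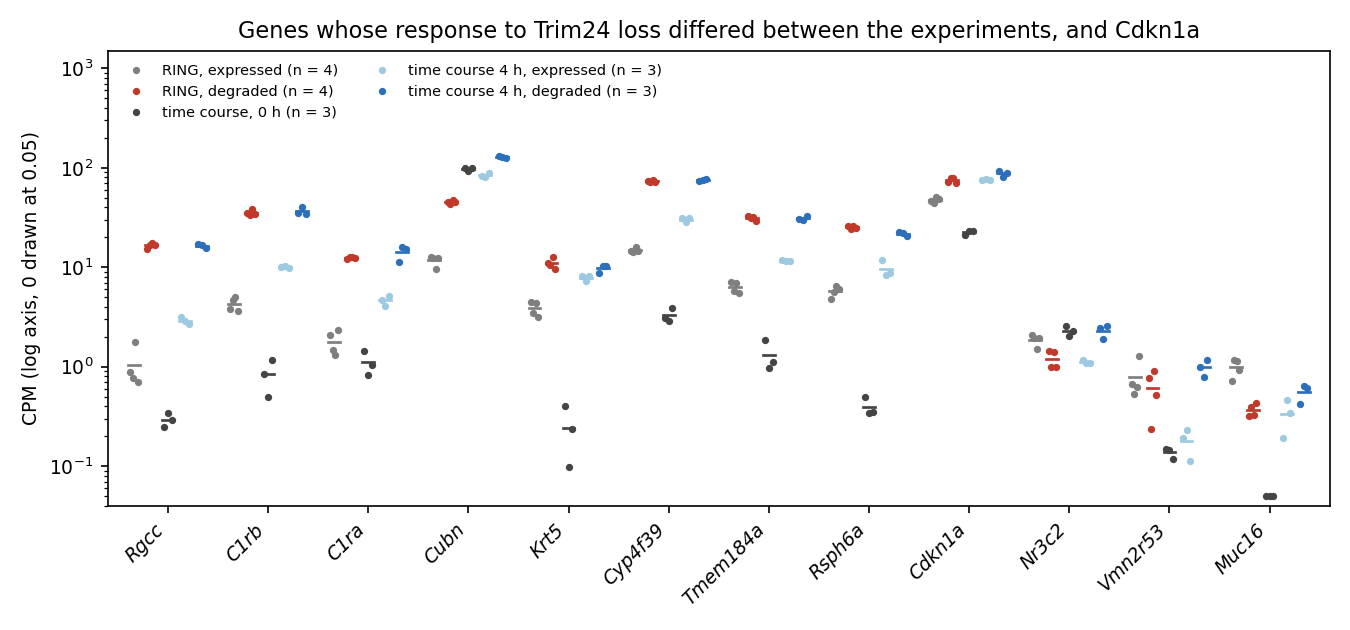
CPM (log axis, 0 drawn at 0.05) in each library of the RING experiment (expressing and degraded, 4 each) and of the time course (0 h, and expressing and degraded at 4 h, 3 each) for 11 genes whose effect differed between the experiments and for Cdkn1a, with a bar at each group mean. For Rgcc, C1rb, C1ra and Cyp4f39 the degraded means are close between experiments and the expressing means are lower in the RING experiment.

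How these genes respond to activation was read from the time course, in which 4 h of doxorubicin with Trim24 present was compared with 0 h (3 libraries each). No sample of the series lacked p53, so the effect of p53 and other effects of the drug cannot be told apart. There 2039 genes rose and 915 fell, 12.9% and 5.80% of those tested (1570 and 1366 after quantile normalization). Of the 165 genes that rose on Trim24 loss, 154 were tested, and 89 of the 165 rose (53.9%) and 4 fell on activation, 61 were not counted as changed and 11 had too few reads to be tested. Their median log2 fold change on activation was 0.945. C1rb (3.17) and Cyp4f39 (3.07) were among those that rose on activation. Ptgs2, at 2.44 CPM at 0 h and 3.90 CPM after 4 h (0.61), Dusp10, at 6.21 and 6.72 CPM (0.11), and Tnfaip3, at 2.49 and 2.69 CPM (0.10), were not among them. Of the 22 that fell on Trim24 loss, 6 rose and 5 fell on activation. Spry4 stood at 142.6 CPM at 0 h and 33.7 CPM at 4 h, and Nanog at 627.6 and 193.3 CPM.

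In uninduced cells, Trim24 loss raised 12 genes (0.0781% of 15360 tested), and none was counted as lowered by limma or by limma-voom, with 518 lower at an unadjusted p under 0.05 by limma and 508 by limma-voom. Of the 165 genes, 132 were tested there and 10 of the 12 were among them. The median of the 132 was 0.151. At the looser rule, 11 of the 18 cholesterol synthesis genes rose in uninduced cells and none fell. Their median was 0.281, where that over all genes tested was 0.004. The degraded uninduced libraries were from cells given 500 nM dTAG13 for 4 h, and the expressing ones were taken as untreated cells at 0 h. The study's methods give compounds in fresh medium. Loss of Trim24 can therefore not be told apart here from the degrader or from a change of medium. These libraries were grouped by title: the expressing ones are titled as untreated, while their treatment label names activated p53. Their mean levels of Mdm2 (184.4 CPM) and Cdkn1a (26.7 CPM) stand beside 180.9 and 22.5 CPM at 0 h and 966.2 and 75.9 CPM after 4 h of activation in the time course. Rgcc stood at a mean of 0.112 CPM in expressing and 0.803 CPM in degraded uninduced cells, Adamts2 at 0.595 and 3.36 CPM, Csrnp2 at 53.9 and 86.0 CPM, and Ptgs2 at 3.26 and 3.88 CPM. The list of 15 primitive endoderm genes summed to 18490.0 to 19085.2 CPM in expressing and 16651.7 to 19192.2 CPM in degraded uninduced libraries. In the RING experiment it summed to 1426.7 to 1529.1 CPM over both groups, so these cells differed in more than activation. The part of this difference in the values was not tested.

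The ligase-null cells of the same experiment carry a mutated RING domain in Trim24 and had 4 libraries after 4 h of activation without dTAG13. They are another line, so their levels are set beside the others with no test. Ptgs2 had a mean of 28.9 CPM in ligase-null cells, against 2.60 CPM in expressing and 31.7 CPM in degraded cells. Rgcc had 11.2 CPM against 1.03 and 16.6, C1rb 26.1 CPM against 4.29 and 35.2, and Dusp10 19.5 CPM against 5.06 and 19.6. In these 4 genes the ligase-null mean was nearer to the degraded one. Krt5, with 4.13 CPM against 3.88 and 10.9, Spry4, with 24.6 CPM against 25.7 and 11.9, and Gcm1, with 4.02 CPM against 4.32 and 2.16, were nearer to the expressing mean. Cubn, at 143.2 CPM, was outside the range of both. The list of 15 primitive endoderm genes also differed, with a sum of 6022.3 to 6805.9 CPM in ligase-null libraries against the 1426.7 to 1529.1 CPM given above and 2570.9 to 2775.8 CPM in the time course at 4 h, and its part in these levels was not tested.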

How the data were processed

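The authors sequenced stranded total RNA, aligned it to mm10 with STAR, with a random single placement for reads of several matches, and counted it over protein-coding genes by featureCounts. The deposited log2 CPM came from edgeR, with TMM scaling and a prior count of 8. These log2 values, not counts, were tested here with limma 3.58.1 in R 4.3.3 (trend and robust options, Benjamini-Hochberg adjustment). Genes entered a fit if they lay 0.5 above the floor, on the log2 scale, in as many libraries as the smaller group held. Whole reads, recovered to within 0.01 of a read for every value, gave the CPM printed and a limma-voom alternative. Members and gene lists were chosen with earlier results of these data known. Genes were named by rule, except where the text says that they were chosen after their values were seen: those singled out by the study with Trim24, Trp53, Mdm2 and Cdkn1a, the 12 largest increases and 8 largest decreases without overlap, up to 3 changed members (or the 2 of smallest p) of each of 42 lists, and the 5 clearest differences between experiments in each direction. On simulated data, 83 of 100 genes changed by a log2 of 1 and 98 of 100 changed by 2 were recovered, with 1 false call among 16474. The changed genes were drawn only from those above 1 CPM in expressing cells. Recovery below that level, where 58 of the 165 genes that rose lay, was not tested. The other samples of the series were not analysed here. Some genes that the naming rule picked are not reported here.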

Additional observations from a re-analysis of the deposited data

Results flagged for a closer look

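Among 212 sets of 4 libraries (a gene or a sum in 1 group), 15 held a library far from the other 3 by Dixon's criterion. For independent values of a normal distribution chance alone gives about 1 in 20. This rate is only a guide here, because some sets hold ties at 0 CPM. In Trim24-expressing replicate 7 these were the summed CPM of olfactory receptor genes (190.9, the others 97.3 to 113.3), the summed CPM of vomeronasal receptor genes (80.4, the others 37.4 to 43.7), Lars2 (16738.7 CPM, the others 42.4 to 207.0), Vmn2r104 (0.175 CPM, the others 0) and Fut9 (13.6 CPM, the others 11.0 to 11.4). In Trim24-expressing replicate 6 they were Rgcc (1.77 CPM, the others 0.702 to 0.879), Spry4 (24.1 CPM, the others 26.1 to 26.3), Cenpe (154.3 CPM, the others 165.0 to 166.5), Cubn (9.66 CPM, the others 12.5 to 12.7) and Olfr1188 (0.052 CPM, the others 0), and in Trim24-expressing replicate 5 Nupr1 (6.37 CPM, the others 6.91 to 6.96). In degraded libraries they were Trp53 in replicate 5 (228.6 CPM, the others 172.3 to 181.0), Fgfr2 in replicate 4 (5.04 CPM, the others 5.91 to 6.08), Hspb8 in replicate 6 (14 CPM, the others 15.7 to 15.8) and Olfr1188 in replicate 5 (1.03 CPM, the others 0.67 to 0.694).

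The log2 fold change on Trim24 loss differed between the RING experiment and the time course, by a test of the difference itself, for 13 genes. It was larger in the RING experiment for Cubn (by 1.31), Rgcc (1.29), C1rb (1.13), Krt5 (1.12), C1ra (1.08), Cyp4f39 (0.97), Rsph6a (0.91), Hmgn5 (0.90), Tmem184a (0.86) and Nr2c2ap (0.80), and the difference was negative for Vmn2r53 (−1.57), Nr3c2 (−1.36) and Muc16 (−1.30).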

How the results depend on the processing

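Over up to 19 alternatives to each fold change of 37 genes, 670 values kept direction and side of the threshold, 27 kept direction but were no longer past it, and 3 changed sign, all of Mdm2 (−0.004 without both replicates 7, which was chosen after seeing the data, −0.023 after median centring and −0.123 after quantile normalization). The count of genes that rose in the RING experiment was 137 to 187 over the alternatives that kept the thresholds and 152 to 184 with 1 library left out, and the count that fell was 35 with limma-voom, 12 without the trend and robust options and 19 to 31 with 1 library left out. At an adjusted p below 0.05, whatever the size of the change, the counts were 2503 and 1145. In the time course, with no filter, 105 rose and 11 fell. With limma-voom 42 fell, and with 1 library left out 18 to 39 fell (39 without expressing replicate 3). In uninduced cells none rose with no filter, and 1 gene fell in the fit with the replicate block, with 0 to 1 when 1 library was left out. The count of negative differences between experiments was 1 to 9 with 1 library left out: 9 without RING-experiment expressing replicate 4 or 6, 7 without degraded replicate 7, 5 without degraded replicate 5 or time course expressing replicate 2, and 1 without time course degraded replicate 3 or expressing replicate 1. Genes that fell in both 4 h comparisons numbered 8 with limma-voom, with median centring and with a prior count of 2, against 5. The median of the BMP, Nodal and ID genes was −0.386 with the reads thinned. The cause of these shifts was not tested. Libraries with the same number in both groups share no stated source, and their deviations correlated at 0.0754, −0.0466, 0.1328 and 0.1271 for replicates 4 to 7. With the replicate block, 165 genes rose and 23 fell.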

Other observations

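Lists of other gene groups gave the following in the RING experiment, with counts at an adjusted p below 0.05 whatever the size of the change (15.3% of all genes tested rose and 7.02% fell by that rule). Of 19 genes of G1/S and DNA replication 8 rose and 1 fell (4 and 3 after quantile normalization), with the transcription factor gene E2f1 at 32.0 to 41.8 CPM (log2 fold change 0.38, adjusted p = 1.3e-05 by limma) and the thymidylate synthase gene Tyms at 106.1 to 129.3 CPM (0.28). Of 25 genes of G2/M and mitosis 4 rose and 1 fell (3 and 5 after quantile normalization), with the kinetochore motor gene Cenpe at 162.9 to 194.5 CPM (0.25). Of 12 genes of H3K4 methyltransferases and demethylases 1 rose and 2 fell (1 and 5 after quantile normalization), the 2 being the methyltransferase genes Kmt2c at 90.7 to 68.6 CPM (−0.40) and Kmt2a at 35 to 28.6 CPM (−0.29). Among 15 Wnt ligands and targets 2 rose and 3 fell, with Wnt9a at 20.4 to 29.4 CPM (0.53) and Wnt7b at 10.4 to 7.08 CPM (−0.54). In the time course Wnt9a had a log2 fold change of 0.01 and Wnt7b of −0.72.

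Of 59 replication-dependent histone genes 1 rose and 1 fell in the RING experiment (median −0.053), where 23 fell in the time course (median −0.445). Of 13 mitochondrially encoded genes 6 rose (median 0.151), but 1 after quantile normalization (median 0.057) and 2 after median centring. Of 57 other TRIM genes 5 rose and 9 fell, and Trim16, an E3 ligase of stress responses, fell from 6.23 to 3.49 CPM (−0.78). Of 1137 olfactory receptor genes listed, 107 were tested and 1 was counted as changed (Olfr1188, at a mean of 0.013 CPM in expressing and 0.770 CPM in degraded libraries), and of 349 vomeronasal receptor genes 75 were tested and 2 were (Vmn2r104 and Vmn1r46). Germline genes (2 rose and 1 fell of 12), genes of the 2-cell-like state (2 rose of 10) and interferon factors and stimulated genes (1 rose and 1 fell of 13) had medians of 0.053, 0.137 and −0.015.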
